A study of Rattus norvegicus with 4 samples.

Results

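The genes described here encode the subunits, assembly factors and activators of the proteasome. They were the genes of the array whose rat symbol starts with Psma, Psmb, Psmc, Psmd, Psme, Psmf or Psmg, found by matching each probe's accession to RefSeq. The rule found 47 of the 16506 named genes measured, on 50 probes and 92 spots per array. It used names only and no measured value. No probe was matched to Psmb11, Psmg1 or Psmg3, which are not analysed here.

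The series holds 4 single-colour arrays of 1 group, so there was no comparison between treatments and the arrays are compared with each other. Each array measured total RNA of NR8383, an established line of alveolar macrophages obtained by washing a normal rat's lung, and the design text calls the 4 samples biological replicates. Every replicate had spent 4 h in DMEM with 10% fetal bovine serum, the only treatment, in a condition carrying the letters ALI, which are not interpreted here. All cells were at 20 passages, had been grown with 15% serum as a culture of adherent and floating cells in equal parts, and had been seeded for 48 h in flasks of 25 cm2 before RNA of integrity number above 7.5 was extracted. As a model this is a single line with no second cell source and no untreated or stimulated group. Of the markers of macrophages, 8 of 8 measured were detected, against 0 of 6 of epithelium, 0 of 2 of neutrophils and 0 of 1 of B cells. Detected too were 1 of 4 of the fibroblast list (Dcn), 1 of 3 of the T cell list (Cd3d) and 2 of 3 of the endothelial list (Pecam1 and Cdh5). Of all named genes, 53.1% were detected.

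The proteasome is a barrel-shaped protease with stacked rings of alpha and beta subunits, capped by a regulatory particle that recognises, unfolds and feeds in proteins tagged with ubiquitin. Its proteolytic sites lie in the beta subunits Psmb5, Psmb6 and Psmb7. In cells of the immune system and after interferon, newly made particles can instead carry Psmb8, Psmb9 and Psmb10, which form the immunoproteasome and change the peptides offered to class I molecules. Macrophages are among the cells that hold such particles.

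A level is the log2 of a probe's processed signal less the 75th percentile of that array, and a gene's level is the mean of its detected probes. Detection of a probe required the scanner software's well-above-background flag on most of its spots, in all 4 replicates. The 75th percentile signal was between 83.4 and 167 units, lowest on replicate 1 and highest on replicate 4, and between 50.9% and 58.9% of spots were well above background. Levels of different probes are not comparable, so each gene is set against itself on the other arrays. In RNA from whole cultures, fewer cells of a type and less RNA per cell cannot be told apart.

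Transcripts of nearly the whole particle were detected in the cells. Of the 47 genes, 46 were detected on all 4 arrays, against 53.1% of the 16506 named genes. The exception was Psma8, an alpha subunit known from testis. Its level was -3.46, -4.04, -3.43 and -3.70 on replicates 1 to 4, and it was flagged well above background on 0 arrays. Detection on at least 3 arrays gave 46 too, against 57.3% of named genes. Under the looser flag for a positive and significant signal all 47 genes were called, against 66.9% of named genes. A test of each probe against the 95th percentile of the negative controls called all 47 too, against 69.8% of named genes, with an adjusted p of 0.000436 for Psma8 (limma, Benjamini-Hochberg adjustment over all probes). So Psma8 was not well above background, but it differed from the negative controls. Psmg4, which encodes a chaperone of ring assembly, has 2 probes, of which 1 was detected. The other probe read -4.74, -5.48, -4.39 and -5.62 on the 4 arrays in order and was flagged well above background on 0 arrays.

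**Figure D1:**
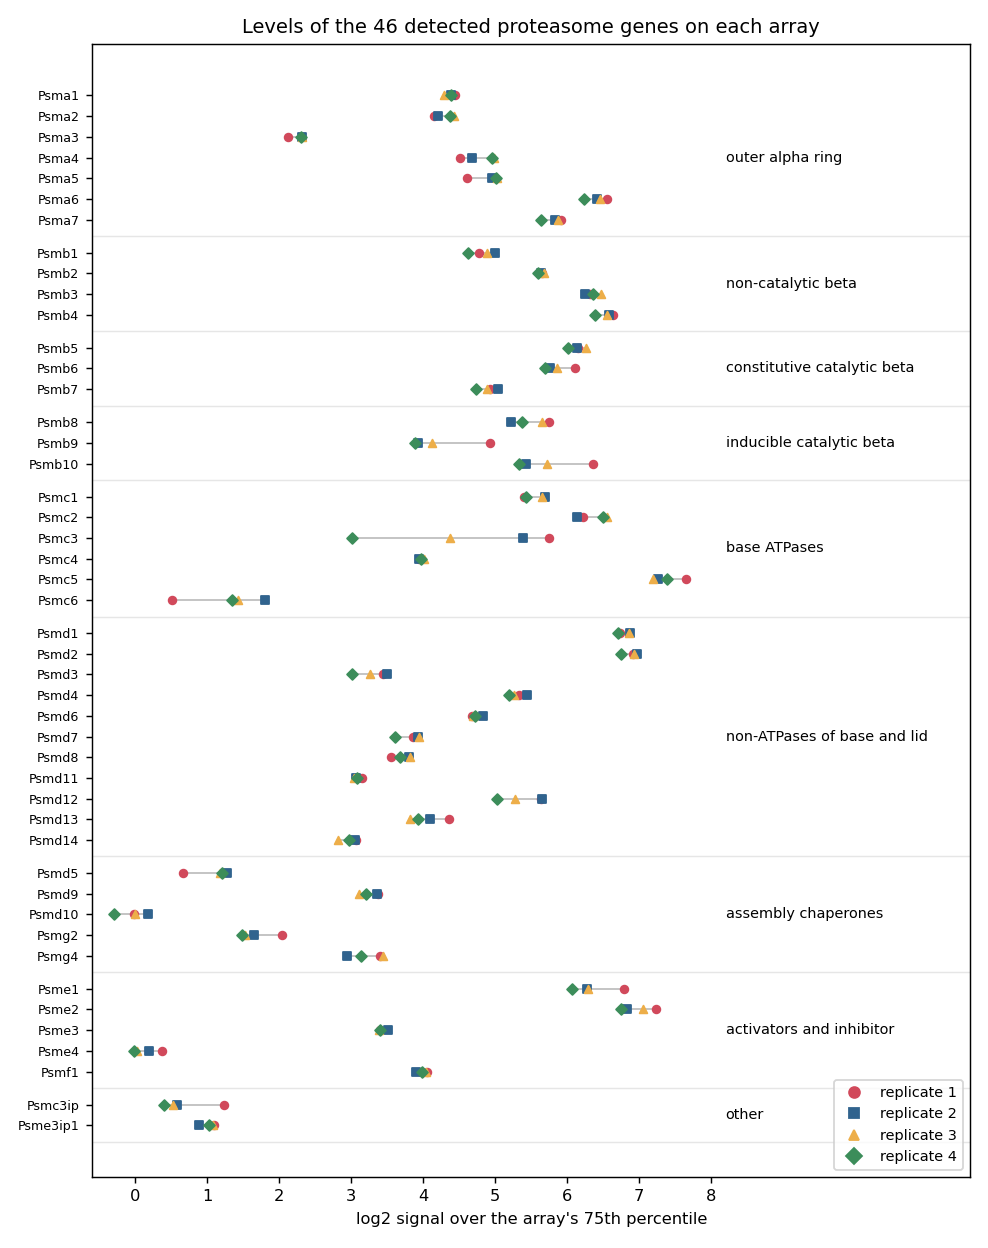
Level of each of the 46 detected proteasome genes (log2 processed signal less the array's 75th percentile, horizontal axis), grouped by role, with 1 point per array. Most genes show points that nearly coincide, while those of Psmc3 (3.00 to 5.75), Psmc6, Psmb9 and Psmb10 are spread out.

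The outer alpha ring, which gates the entry to the barrel, was detected in 7 of 7 genes with a median SD between arrays of 0.13. Psma1, one of its subunits, was among the steadiest genes, with levels of 4.44, 4.38, 4.29 and 4.38 on replicates 1 to 4. The non-catalytic beta subunits, which complete the inner rings, were detected in 4 of 4 genes with a median SD of 0.10. Psmb2 was the steadiest of them, at 5.64, 5.64, 5.68 and 5.60. Of the alpha genes, Psma2, Psma3, Psma4 and Psma5 were lowest on replicate 1, as were 32.8% of all detected genes. They lay below the mean of the others there by differences of -0.18, -0.19, -0.36 and -0.39. Psma1, Psma6 and Psma7 were highest on replicate 1, as were 42.3% of all detected genes, with differences of 0.09, 0.18 and 0.13. Psma4 had an SD of 0.23, close to that of the inducible Psmb8 given below. The median difference of replicate 1 over the 7 alpha genes was -0.18.

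Psmb5 and Psmb7, of the constitutive catalytic genes, were nearly level across the arrays, and Psmb6 less so. Psmb5, which encodes the chymotrypsin-like site, was 6.15, 6.14, 6.26 and 6.01 on replicates 1 to 4, with an SD of 0.10. Psmb6, which encodes the caspase-like site, was 6.11, 5.76, 5.86 and 5.69 in the same order, with an SD of 0.18 over 2 probes. Psmb7, which encodes the trypsin-like site, was 4.92, 5.03, 4.88 and 4.74, with an SD of 0.12. Replicate 1 was the highest for Psmb6 and lay between the other arrays for Psmb5 and Psmb7.

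Replicate 1 was the highest array for all 3 inducible catalytic genes, as it was for 42.3% of all detected genes. Psmb9 and Psmb10 spread most widely. Psmb8, which takes the place of Psmb5, was 5.75, 5.22, 5.65 and 5.38 on replicates 1 to 4. Psmb9, which takes the place of Psmb6, was 4.93, 3.93, 4.12 and 3.89 in the same order. Psmb10, which takes the place of Psmb7, was 6.36, 5.42, 5.72 and 5.33. For Psmb9 and Psmb10, replicate 1 stood clear of the others by more than those others differed among themselves. The excess of replicate 1 over the mean of replicates 2 to 4 was 0.95 for Psmb9, 0.87 for Psmb10 and 0.33 for Psmb8. For the constitutive genes it was 0.01 for Psmb5, 0.34 for Psmb6 and 0.04 for Psmb7. A larger excess than that of Psmb9 was seen in 4.96% of all detected genes, and than that of Psmb10 in 6.08%. The excess of Psmb8 was exceeded in 28.6%, close to the 28.3% for the constitutive Psmb6. An array has no replicate of its own, so these are values of 1 array. Dixon's ratio for a single array far from the others, given at the end, did not flag Psmb8, Psmb9 or Psmb10. Their SDs were 0.48 for Psmb9, 0.47 for Psmb10 and 0.24 for Psmb8. Of all detected genes, 11.3% had a larger SD than Psmb9 and 12.4% a larger SD than Psmb10, while 48.0% exceeded Psmb8.

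**Figure D2:**
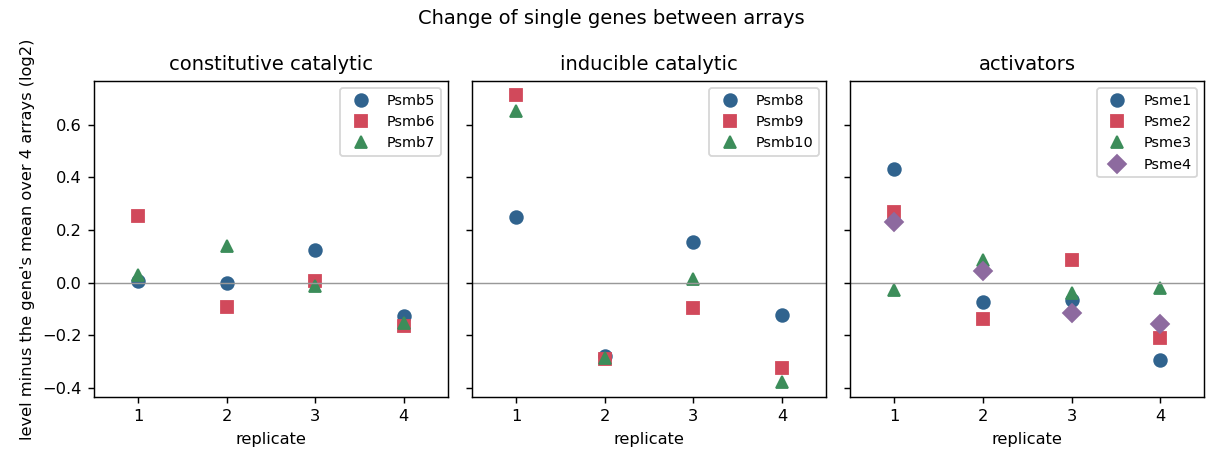
Deviation of each catalytic gene from its own mean over the 4 arrays (log2), by replicate, for the constitutive Psmb5, Psmb6 and Psmb7, the inducible Psmb8, Psmb9 and Psmb10, and the activators Psme1 to Psme4. Inducible genes reach a median of 0.65 on replicate 1, where the constitutive genes have a median of 0.03.

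Set against the constitutive genes on the same array, the inducible genes were highest on replicate 1. The mean deviation of Psmb8, Psmb9 and Psmb10 less that of Psmb5, Psmb6 and Psmb7 was 0.44, -0.30, -0.01 and -0.13 on replicates 1 to 4. Replicate 1 thus exceeded the highest of the others by 0.46, while the range of replicates 2 to 4 was 0.29. Each pair showed the same order for replicate 1. Psmb8 less Psmb5 was 0.24 on replicate 1 and at most 0.03 elsewhere, Psmb9 less Psmb6 was 0.46 and at most -0.10, and Psmb10 less Psmb7 was 0.62 and at most 0.03. A scaling factor of a whole array cancels in this difference. The value for replicate 1 was 0.47 under normexp, 0.45 under quantile normalization and 0.41 with the first probe of each gene. With 1 other replicate left out it lay between 0.34 and 0.44. Another percentile, the median of probes, outlier spots kept and the dim area left out could not change it, and it stayed at 0.44. Replicate 1 was also the dimmest array, with the lowest 75th percentile signal and the largest SD between spots of 1 probe (median 0.16 over probes with 8 or more spots, against 0.07 to 0.11 on the others), and the part of this in the result was not tested. Without replicate 1, the values were -0.15, 0.13 and 0.02. Markers of cell types also differed on replicate 1. Of the 8 macrophage markers 4 were highest there, a share near the 42.3% of all detected genes. Their differences from the mean of the others lay between -0.20 for Spi1 and 1.36 for Mrc1, with 0.94 for Pparg and 0.69 for Csf1r. Pecam1 of the endothelial list had a difference of 1.34, Cdh5 -0.0087, Cd3d -0.0068 and Dcn -0.74. Their part in the result was not tested.

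**Figure D3:**
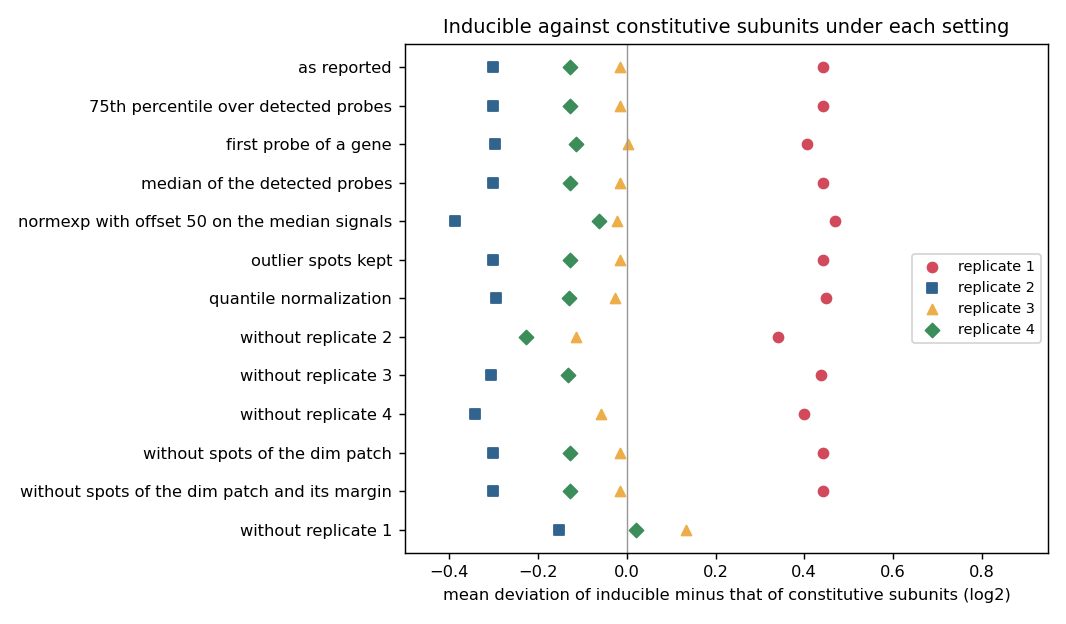
Mean deviation of the inducible catalytic genes less that of the constitutive ones (log2) on each array, under the processing used here and under each alternative. Values for replicate 1 lie between 0.34 and 0.47 and stand above those of replicates 2, 3 and 4, which lie between -0.39 and 0.13. Another percentile, the median of probes, outlier spots kept and the dim area left out could not change the values.

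The precision of these values differs from gene to gene. Psmb5, Psmb7, Psmb9 and Psmb10 each rest on 1 spot per array, so spot error cannot be separated from array differences for them. Psmb8 has 2 spots, which read 5.47 and 6.03 on replicate 1 and 4.92 and 5.52 on replicate 2. On replicate 3 they read 5.63 and 5.68, and 5.37 and 5.39 on the last array. Its replicate 1 spots thus straddled those of replicate 3, and its excess on replicate 1 was smaller than the gap between its own spots there. Psme1 and Psme2, which encode the interferon-inducible activator of the barrel, have 10 spots each, which lowers their spot error. For Psme1, the usable spots of replicate 1 lay between 6.61 and 6.89, against 6.08 to 6.43 on replicate 2, 6.23 to 6.42 on replicate 3 and 5.96 to 6.15 on replicate 4. No spot of replicate 1 overlapped the other arrays. For Psme2, replicate 1 lay between 6.99 and 7.42, and overlapped replicate 3, which lay between 7.01 and 7.13. The spots of replicates 2 and 4 were lower, at 6.61 to 6.97 and 6.69 to 6.84. Spots of 1 array share the same RNA, so they measure the scan and not the culture.

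**Figure D4:**
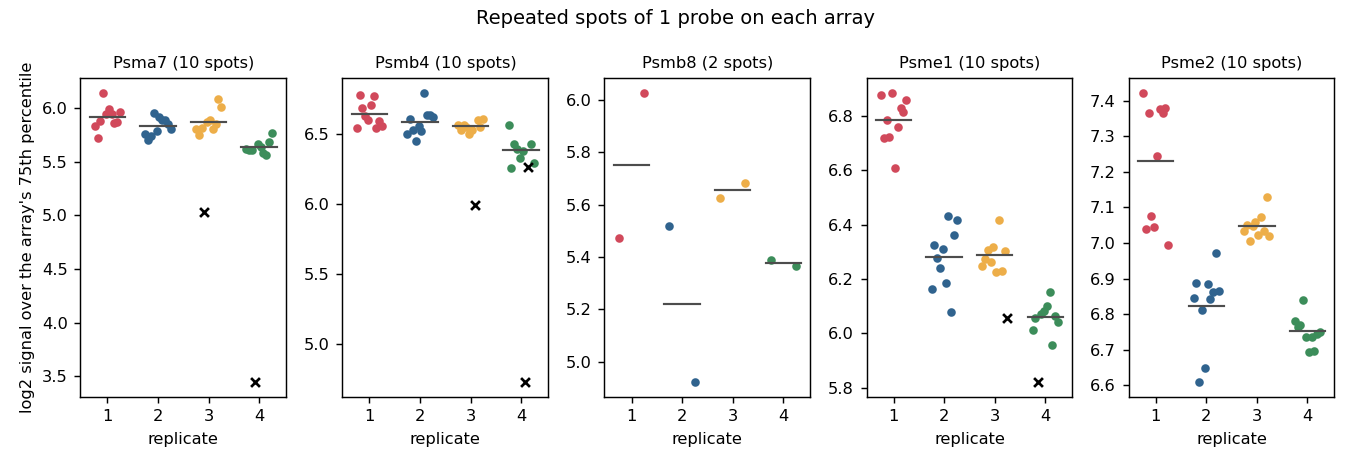
Level of each spot (log2 processed signal less the array's 75th percentile) of Psma7, Psmb4, Psmb8, Psme1 and Psme2, by replicate, with lines at the mean and crosses for spots marked as outliers and left out. For Psme1, the replicate 1 spots lie between 6.61 and 6.89, above every spot of the other arrays, while for Psme2 they overlap those of replicate 3.

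The activators did not all follow the inducible subunits. Psme1 was 6.79, 6.28, 6.29 and 6.06 on replicates 1 to 4, and Psme2 was 7.23, 6.82, 7.05 and 6.75. Psme3, which encodes a nuclear activator, was 3.40, 3.51, 3.38 and 3.40, and replicate 1 was not its highest. Psme4, which encodes an activator of chromatin-linked degradation, was 0.37, 0.19, 0.03 and -0.02. Psmf1, an inhibitor of the barrel, was 4.05, 3.90, 4.04 and 3.98. The excess of replicate 1 was 0.58 for Psme1 and 0.36 for Psme2. Set against the constitutive genes, the mean of Psme1 and Psme2 gave 0.25, -0.12, -0.03 and -0.10 on the 4 arrays, again with replicate 1 the highest.

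The regions around the start sites of the catalytic genes are shown because the inducible and constitutive genes are known to be under different control. Sequences are RefSeq's, on GRCr8, from 250 bases before to 50 after the start of transcription, read in the gene's direction, and capitals mark a match to GAAA, any 2 bases and GAAA (the core of the interferon-stimulated response element) or TGACNNNGC (an antioxidant response element), on either strand. Psmb8 lies at chr20:4656982-4657281, minus strand, Psmb9 at chr20:4668750-4669049, plus strand, Psmb10 at chr19:50743243-50743542, minus strand, Psmb5 at chr15:32047330-32047629, minus strand, Psmb6 at chr10:55737638-55737937, plus strand and Psmb7 at chr3:42827421-42827720, minus strand.
Psmb8: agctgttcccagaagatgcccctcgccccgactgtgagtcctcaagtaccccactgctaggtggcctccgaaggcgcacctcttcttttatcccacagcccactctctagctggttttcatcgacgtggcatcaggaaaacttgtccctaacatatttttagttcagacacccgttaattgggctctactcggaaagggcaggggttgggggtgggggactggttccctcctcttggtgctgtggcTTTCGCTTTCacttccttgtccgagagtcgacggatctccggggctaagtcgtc
Psmb9: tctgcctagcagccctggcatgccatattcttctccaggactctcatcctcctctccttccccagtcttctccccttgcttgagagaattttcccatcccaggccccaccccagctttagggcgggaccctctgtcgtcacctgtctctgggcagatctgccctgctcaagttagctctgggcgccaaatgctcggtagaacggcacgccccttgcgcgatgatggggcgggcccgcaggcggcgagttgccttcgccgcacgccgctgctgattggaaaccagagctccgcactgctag
Psmb10: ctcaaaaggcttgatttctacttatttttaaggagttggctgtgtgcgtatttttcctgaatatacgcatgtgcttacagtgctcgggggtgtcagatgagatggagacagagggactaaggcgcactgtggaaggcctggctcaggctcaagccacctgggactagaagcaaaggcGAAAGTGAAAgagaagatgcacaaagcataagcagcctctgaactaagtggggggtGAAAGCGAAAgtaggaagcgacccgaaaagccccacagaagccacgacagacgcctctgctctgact
Psmb5: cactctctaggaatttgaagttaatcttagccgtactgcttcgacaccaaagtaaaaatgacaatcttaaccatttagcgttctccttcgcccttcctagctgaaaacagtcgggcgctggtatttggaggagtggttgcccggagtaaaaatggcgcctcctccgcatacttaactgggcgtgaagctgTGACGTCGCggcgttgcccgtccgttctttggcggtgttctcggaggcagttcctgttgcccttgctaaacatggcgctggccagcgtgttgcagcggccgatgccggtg
Psmb6: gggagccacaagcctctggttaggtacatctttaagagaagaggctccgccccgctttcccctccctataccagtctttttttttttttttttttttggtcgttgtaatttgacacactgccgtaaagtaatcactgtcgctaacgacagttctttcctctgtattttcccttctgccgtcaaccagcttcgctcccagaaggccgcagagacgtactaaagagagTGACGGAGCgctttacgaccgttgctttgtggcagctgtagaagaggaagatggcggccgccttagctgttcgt
Psmb7: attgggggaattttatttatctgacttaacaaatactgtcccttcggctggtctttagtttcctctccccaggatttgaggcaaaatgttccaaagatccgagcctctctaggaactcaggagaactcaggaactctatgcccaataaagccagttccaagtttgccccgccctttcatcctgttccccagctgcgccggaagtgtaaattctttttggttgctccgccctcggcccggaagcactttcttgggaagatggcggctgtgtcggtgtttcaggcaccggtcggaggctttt

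The Psmb10 window held 2 matches to the interferon-stimulated core, at bases 178 to 187 and 234 to 243 counted from its 5′ end. Psmb8 held 1, at bases 247 to 256 on the opposite strand. Psme2 held 1 at bases 198 to 207. Psmb5 and Psmb6 each held an antioxidant match, at bases 191 to 199 and 227 to 235. The Psmb7 and Psmb9 windows held no match to these letters. In RefSeq's order, Tap1 is the nearest coding gene before Psmb9 and lies on the opposite strand, while Psmb8 lies between Tap2 and Tap1.

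Promoter windows were found for 43 of the 47 genes. The interferon-stimulated core was in 7 of the 43, in Psma4, Psmb3, Psmb8, Psmb10, Psmd7, Psme2 and Psmg4, against 3.92% of all 33469 windows. The antioxidant letters were in 8 of 43, against 12.1% of all, and CCAAT was in 22 of 43, against 37.5% of all. In Psmb2 the antioxidant and CCAAT matches share 1 base. Matches were searched on both strands and are a description of letters only. Among genes with the core, the difference of replicate 1 from the mean of the others was -0.36 for Psma4, -0.04 for Psmb3 and 0.03 for Psmd7. It was 0.23 for Psmg4, 0.33 for Psmb8, 0.36 for Psme2 and 0.87 for Psmb10. Psmb9, without the core, had a difference of 0.95. A link between these letters and the levels was not tested.

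The base of the regulatory particle holds 6 ATPases that unfold the substrate, and all 6 were detected, with a median SD of 0.20. Psmc4 was the steadiest gene of all 46, at 3.95, 3.94, 4.01 and 3.97. Psmc6 was 0.51, 1.80, 1.43 and 1.35 on replicates 1 to 4, so replicate 1 lay 1.02 below the mean of the others. Psmc3 had the largest SD of all, 1.23, with levels of 5.75, 5.39, 4.37 and 3.00. Its only spot lies in a dim area of the array surface.

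That area was found as a box around 77 detected probes over 2 log2 units lower on replicate 4 than on the mean of the other arrays. The Psmc3 probe was among them, so its place inside the box follows from its own low value. The low median of the area on replicate 4 follows in part from the same rule. Inside it, 201 detected spots had a median deviation from the mean of replicates 1 and 2 of -0.83 on replicate 3 and -2.08 on replicate 4, against 0.01 and -0.08 elsewhere on the array. Psmc3 deviated by -1.19 and -2.56, below the median of the area on both arrays. Psma7 and Psmb4 each had 1 of their 10 spots there, at -2.60 and -2.05 on replicate 4, which the software marked as outliers on replicates 3 and 4 and which were left out there. Proteasome spots outside the area deviated on replicate 4 by between -0.71 and 0.42, with a median of -0.19. The levels of Psmc3 on replicates 3 and 4 are given as readings of a dim area, and whether its transcript also differed was not tested. Leaving out the area leaves 45 genes detected.

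**Figure D5:**
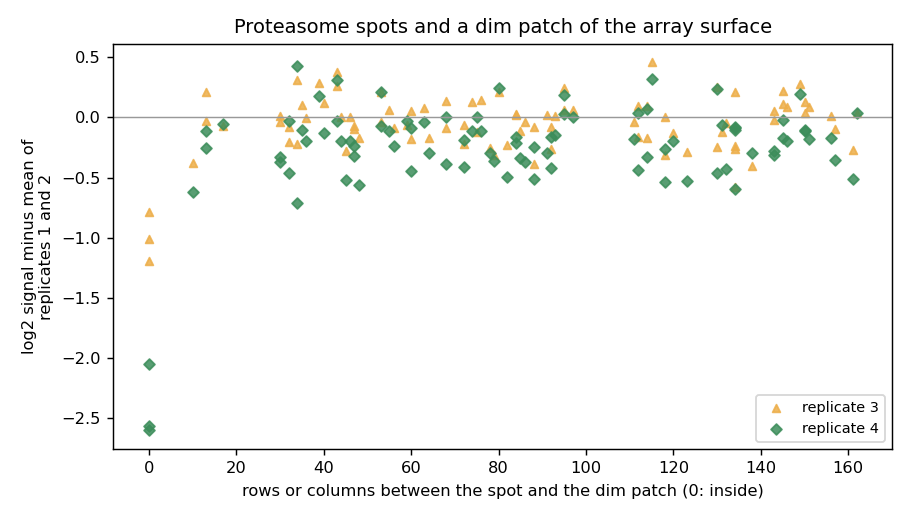
Deviation of each spot of the detected proteasome probes on replicates 3 and 4 from the mean of replicates 1 and 2 (log2), by its distance in rows or columns from the dim area. On replicate 4 the 3 spots inside it read -2.56 for Psmc3, -2.60 for Psma7 and -2.05 for Psmb4, while the spots outside lie between -0.71 and 0.42.

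The other subunits of the base and lid, some of which bind ubiquitin chains or cut them off, were detected in 11 of 11 genes. Their median SD was 0.11. Psmd11, a lid scaffold, was 3.15, 3.07, 3.03 and 3.08. Psmd12, another lid subunit, was 5.64, 5.65, 5.27 and 5.02, and its spot lies in the margin of the dim area. Psmd4, a ubiquitin receptor, had a mean of 5.30 with an SD of 0.11, and Psmd14, the deubiquitinase of the lid, had a mean of 2.98 with an SD of 0.11. Their median SD lay close to that of the barrel's non-catalytic beta subunits.

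Assembly chaperones were detected in 5 of 5 measured genes with a median SD of 0.23. Psmd5, a chaperone of the base, was 0.66, 1.28, 1.18 and 1.21, so replicate 1 lay 0.56 below the others' mean. Psmg2, a chaperone of the alpha ring, went the other way, at 2.04, 1.64, 1.53 and 1.48. The rule also took in 2 genes named for partners of subunits. Psmc3ip, which encodes a protein of homologous pairing and no proteasome subunit, was 1.23, 0.58, 0.52 and 0.40, and Psme3ip1 had a mean of 1.02 with an SD of 0.10.

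As a group the genes varied little. The median SD of the 46 detected genes was 0.15, against 0.24 for all detected genes, and 36 of the 46 lay under that median. Among the 1619 detected genes with a mean level between 3.27 and 5.79, the median SD was 0.20, against 0.15 for the 22 proteasome genes among them. Under normexp background correction this order turned, with 0.21 for the proteasome genes and 0.20 for all detected genes. Without replicate 1 the medians were 0.12 and 0.15. Within the particle, the inducible catalytic genes had the highest median SD, 0.47, and without replicate 1 theirs was 0.21.

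No array was high for the whole particle. Replicate 1 held the highest level of 21 of the 46 genes, against 42.3% of all detected genes, and the lowest of 9, against 32.8%. Replicate 2 held the highest of 14, against 21.9%, and the lowest of 7, against 23.4%. Replicate 3 held the highest of 11, against 19.9%, and the lowest of 7, against 11.1%. Replicate 4 held the highest of 0, against 15.8%, and the lowest of 23, against 32.7%. The median deviation on replicate 4 was -0.11, against -0.05 for all detected genes. Its sign turned under normexp, to 0.05, and under quantile normalization, to 0.0072, so no direction is given for replicate 4. A step of replicate 1 of more than 0.5 above the mean of the others was seen in 5 of the 46 genes, against 18.5% of all detected genes, and these were Psmb9, Psmb10, Psmc3, Psmc3ip and Psme1. The step of Psmc3 rests on its readings in the dim area, and without it 4 genes remain. A step of that size below was seen in 2, Psmc6 and Psmd5, against 13.5%. Neither count is above the background.

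Other genes of the pathway, listed as the maturation factors, ubiquitin genes, receptors, unfoldase, interferon control and class I peptide loading, were detected in 27 of 29 measured, against 53.1% of named genes. Uba6, an activating enzyme for ubiquitin, was well above background on 0 arrays, and Irf8, a macrophage transcription factor, on 1 array with its only spot in the dim area. Replicate 1 held the highest level of 15 of the 27, again against 42.3% of all detected genes. Pomp, the maturation factor of the barrel, was 6.60, 6.41, 6.57 and 6.42, and the ubiquitin gene Ubb was 8.30, 8.19, 8.23 and 8.18. Both were nearly level over the arrays. Adrm1, a ubiquitin receptor of the base, was 0.39, 1.48, 1.22 and 1.16, low on replicate 1 as Psmc6 and Psmd5 were.

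Among genes of interferon control, Irf1, a transcription factor of the inducible subunits, was 2.93, 2.18, 2.62 and 2.17. Its levels on replicates 1 and 3 stood above those on replicates 2 and 4. Among genes of class I peptide loading, Tap1, a subunit of the peptide transporter and neighbour of Psmb9, was -0.43, -0.81, -0.75 and -1.09. Tapbp, which holds the class I molecule at the transporter, was 2.57, 1.82, 1.98 and 1.83. Tap2, the transporter's partner subunit, was 3.03, 2.90, 3.21 and 2.78, with replicate 3 the highest, and B2m, the light chain of class I, was 7.95, 8.05, 8.10 and 8.14, with replicate 1 the lowest. The list did not share 1 order over the arrays.

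Near-identical copies limit some of these values. For 19 of the 47 genes, RefSeq lists copies with the same base name, 48 pseudogenes and 4 coding copies in all, with 8 pseudogenes and 2 coding copies for Psmb3. Probe sequences were not used here, so signal shared with such copies is possible for those genes. It listed 2 pseudogenes and 1 coding copy for Psmb6, 2 pseudogenes for Psmb7 and 3 each for Psme1 and Psme2, and none for Psmb5, Psmb8, Psmb9 and Psmb10.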

How the data were processed

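Per the file headers, the authors deposited linear spot intensity from single-colour Agilent scans of 1 slide, as a processed signal, median foreground and background signals and flags. Quantification was by Agilent Feature Extraction 11.0.1.1, per the submitters' processing notes. The authors' files hold no scaling between arrays.

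Control spots (4259) and outlier spots (440 to 1206 per array) were left out, and 0 spots were saturated. Spots of a probe were averaged, leaving 45280 probes with 318 left out. Accessions were named through RefSeq (GRCr8), which named 17614 of 40539. Copies were counted from the same table by name. Coordinates of promoters are RefSeq's. The files carry no gene-name column. A listed gene and a listed motif are not reported here.

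The members and lists were chosen with earlier results of these data known. All genes the rule names are reported: catalytic genes, activators, exceptions and the 5 largest and 5 smallest SDs with values on every array, and the rest by mean, SD or count, with others named where a statement turned on them after their values were seen. With 1 group, counts, SDs and per-array deviations were described without tests, except limma 3.58.1 (R 4.3.3) for detection, which was tested on simulated data, and Dixon's ratio for a single array far from the others. Replicates are biological per the design text, and with 4 arrays the precision is limited by their number. The alternatives tried were looser detection calls, leaving out each replicate, normexp (offset 50, on median signals), other scalings, other probe summaries, no filter on dim probes, outlier spots kept, and the dim area left out, its margin of 12 rows and columns being added after seeing the data. Figures used matplotlib 3.10.9.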

Additional observations from a re-analysis of the deposited data

Results flagged for a closer look

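Among 47 values tested over the 4 arrays, 4 had an array far from the other 3, by Dixon's ratio of the gap to the whole range. Psma3, an alpha ring subunit, was lowest on replicate 1, at 2.13 against 2.30 to 2.32, with a ratio of 0.883. Psma5, another alpha subunit, was lowest on replicate 1, at 4.61 against 4.96 to 5.02, with a ratio of 0.861. Psmd5, a chaperone of the base, was lowest on replicate 1, at 0.66 against 1.18 to 1.28, with a ratio of 0.836. Psme3, the nuclear activator, was highest on replicate 2, at 3.51 against 3.38 to 3.40, with a ratio of 0.843. Chance gives such a value in about 1 in 20 groups, and 8.41% of all detected genes had one.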

How the results depend on the processing

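Of 144 recomputed group deviations 29 changed sign, from values of at most 0.11 in size, and of 44 inducible less constitutive values 3 did, on replicates 3 and 4. The inducible less constitutive value of replicate 1 stayed above the others' under each alternative that holds it. Among these, another percentile, the median of probes, outlier spots kept and the dim area left out could not change it. Gene levels moved beyond their SD in 46 genes with the percentile over detected probes, 46 under quantile normalization, 41 under normexp and 1 with the first probe. Both counts of 46 follow from a change of unit and do not show that a gene's level is unstable. Another percentile shifts all genes of an array equally, with Psma1 going from 4.37 to 1.29 and Psmb4 from 6.54 to 3.45. Quantile levels are not set against an array's percentile, so Psma1 read 11.27 there. The median deviation of all proteasome genes moved on replicate 1 to -0.11 under normexp, from 0.06. On replicate 4 it was -0.11, and became -0.028 with the percentile taken over detected probes, 0.0505 under normexp and 0.0072 under quantile normalization. For the constitutive genes, the median on replicate 1 moved from 0.03 to -0.12 under normexp and -0.0725 under quantile normalization. On replicate 4 it moved from -0.15 to -0.07 with the percentile over detected probes, -0.0009 under normexp and -0.0321 under quantile normalization. The inducible median on replicate 1 fell from 0.65 to 0.36 under normexp, 0.57 under quantile normalization and 0.59 with the percentile over detected probes. The median SD moved from 0.15 to 0.21 under normexp and 0.18 with outlier spots kept, and lay between 0.12 and 0.16 with 1 replicate left out. The cause was not tested. Detected proteasome genes numbered 44 to 47 and pathway genes 25 to 29. Naming genes by the file alone was not run, since the files used here have no such column. No paired analysis was possible because there is 1 group. Signal over background was lowest on replicate 1, and single-spot genes have no check of spot error.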
